A study of Mus musculus with 9 samples.

Results

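Cells of the mouse tumour line LLC (Lewis lung carcinoma) that had been cultured in medium from GM-BMDM kept with tunicamycin were compared with LLC cells cultured in medium from M-BMDM kept with tunicamycin. The labels use GM-BMDM and M-BMDM for 2 kinds of bone-marrow-derived macrophage, and tunicamycin blocks N-linked glycosylation, so that proteins misfold in the endoplasmic reticulum (ER). The comparison was defined by the labels, and it was chosen with earlier results of these data known. It holds 2 of the 5 LLC libraries and of the 9 libraries of the series, 1 per group, and 11190 of the 21936 genes listed, those with a mean of at least 1 CPM (reads scaled to a common library size) over the 5 LLC libraries.

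All cells were of strain C57BL. Macrophages whose medium was used were kept for 12 h with tunicamycin (stressed) or for the same step without it (unstressed), washed, and given fresh medium, which they conditioned for 16 h and in which LLC cells then grew for 24 h. The 5 LLC groups are therefore stressed GM medium, stressed M medium, unstressed GM medium, unstressed M medium and untreated cells; the sources used here do not give the medium of the last. The 4 macrophage libraries, GM-BMDM and M-BMDM each kept for 4 h with tunicamycin or untreated, serve here only to check markers. The labels give no donor, culture or batch, and nothing says that libraries came from separate cultures. No direct treatment of LLC cells with tunicamycin is labelled, and the content of the media was not measured.

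Macrophages release cytokines, growth factors, lipids and proteases that tumour cells can sense. Signals such as interleukin-1 and tumour necrosis factor act through the transcription factor NF-kB, and many growth factors act through MAP kinases and the AP-1 family. Both routes are known to raise chemokine and matrix metalloprotease genes in many cell types, while ER stress itself raises ER chaperones such as Hspa5 (BiP) and, through ATF4, the genes of the integrated stress response.

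Assigned reads ran from 15020068 to 17128471 per LLC library, and normalization factors lay between 0.987 and 1.01. With 1 library per group there is no replicate error for a pair of libraries, so folds carry exact Clopper-Pearson 95% intervals, which cover counting error alone, and reads are not independent molecules. Summed levels of 16 macrophage markers were 21.9 CPM with stressed GM medium against 21.6 CPM with stressed M medium, compared with 16.4 to 27.3 CPM in the other LLC libraries and 38642 to 56822 CPM in the 4 macrophage libraries, those kept for 4 h with tunicamycin included. Of these markers 8 were at 0 in every LLC library, among them Adgre1, Ptprc, Itgam and Tyrobp. Sums of 9 neutrophil markers stayed between 0.504 and 0.769 CPM. LLC cells expressed Krt8 at 320 to 494 CPM and Vim at 2025 to 2830 CPM, while Epcam, Cdh1 and the lung factor Nkx2-1 were at or near 0.

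Stressed GM medium left LLC cells with more mRNA for complement C3, for neutrophil- and monocyte-attracting chemokines and for matrix metalloproteases than stressed M medium did, and most other genes were close. Of the 11190 genes, 9845 (88.0%) differed by less than 1.2-fold on the log2(CPM + 1) scale. A 2-fold difference on that scale was reached by 23 genes that were higher (0.206%) and 6 that were lower (0.0536%) with stressed GM medium, 29 in all (0.259%). At 1.5-fold there were 101 higher genes (0.903%) and 64 lower genes (0.572%), 165 in all (1.47%). The unstressed pair, which shares no library with the stressed one, had 14 higher (0.125%) and 7 lower (0.0626%) genes at 2-fold, and 101 higher (0.903%) and 113 lower (1.01%) at 1.5-fold.

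**Figure D1:**
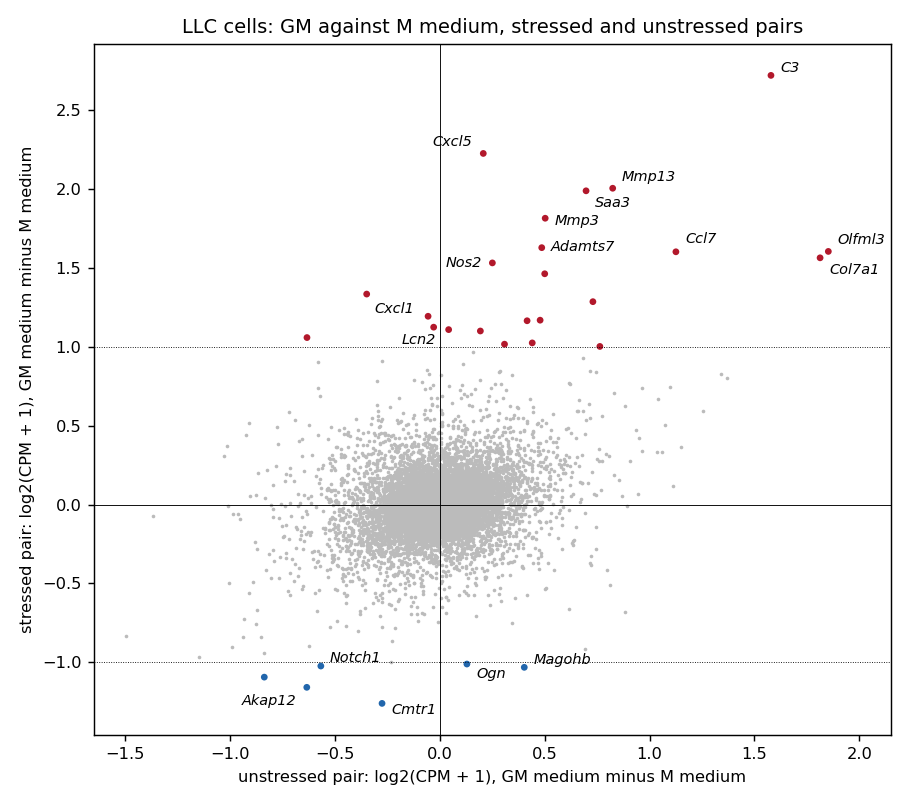
Difference between GM and M medium in LLC cells for 11190 genes, as log2(CPM + 1) of GM medium minus M medium, in the stressed pair (vertical axis) and the unstressed pair (horizontal axis), 1 library per group. Dotted lines mark 2-fold; red and blue points are the 23 higher and 6 lower genes, with C3 at 2.72 and 1.58 at the upper right.

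The difference between GM and M medium, averaged over the stressed and the unstressed pair, was tested with a model over the 5 LLC libraries. A gene can pass it when only 1 of the pairs differs, so a call does not show that both did. The model held the kind of medium, the tunicamycin of the macrophages and medium against none. It left 1 residual degree of freedom, the departure from additivity. For edgeR, the main tool, the prior degrees of freedom were infinite, so its error was pooled over all genes. The SEs and p-values of edgeR therefore do not weigh how far a gene's own pairs differ from each other. Because the stressed pair is part of that fit, its calls are no independent check of the pair. edgeR's quasi-likelihood test called 247 genes higher with GM medium (2.21%) and 260 lower (2.32%), 507 in all (4.53%), at a Benjamini-Hochberg adjusted p of 0.05, with a median size of 0.30 on the log2 scale. DESeq2 called 37 genes, all among those of edgeR, and left 7159 adjusted p-values undefined, those of all 29 genes past 2-fold included. Without that filtering step, an alternative chosen after seeing the data, it called 31 genes, again all among edgeR's. Genes described as rising or falling passed edgeR's test; where DESeq2 also called one, this is said.

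Inflammatory and protease genes were looked up in promoter sequences from RefSeq (build GRCm38.p6). Many such genes are textbook targets of NF-kB or AP-1, and whether either factor took part here was not tested. The 16 genes looked up (C3, Cxcl1, Cxcl2, Cxcl5, Ccl2, Ccl7, Lcn2, Saa3, Nos2, Mmp3, Mmp9, Mmp13, Nfkbiz, Bcl3, Zc3h12a and Tnip1) were chosen after their values were seen, and 10 matched an entry. The 250 bases before the start of transcription were searched on both strands for an NF-kB motif (GGG, any 3 bases, TTCC) and the AP-1 motif (TGA, any base, TCA). The NF-kB motif was found in Cxcl1, Cxcl2 and Tnip1, against 4.65% of all 32851 promoters and 5.21% of those of genes compared here. The AP-1 motif was found in Mmp13 and Mmp3, against 6.75% of all promoters and 4.32% of those of genes compared. Neither was found in the windows of C3, Lcn2, Saa3, Bcl3 and Zc3h12a. A match describes letters and is not a measured binding site. The choice of textbook targets raises the number of genes with a match, so the counts are no test of enrichment.

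The promoters with a match are shown from 250 bases to 1 base before the start, on the strand of the gene, with each match in capitals. Cxcl1 (chr5:90890995-90891244), Cxcl2 (chr5:90903649-90903898), Mmp13 (chr9:7272264-7272513) and Mmp3 (chr9:7445572-7445821) lie on the plus strand, and Tnip1 (chr11:54962941-54963190) on the minus strand.
Cxcl1: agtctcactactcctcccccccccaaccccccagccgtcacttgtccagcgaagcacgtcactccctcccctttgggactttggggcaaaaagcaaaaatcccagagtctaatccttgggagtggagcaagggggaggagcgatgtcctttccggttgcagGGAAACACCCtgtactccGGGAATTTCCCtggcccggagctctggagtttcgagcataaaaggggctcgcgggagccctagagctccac
Cxcl2: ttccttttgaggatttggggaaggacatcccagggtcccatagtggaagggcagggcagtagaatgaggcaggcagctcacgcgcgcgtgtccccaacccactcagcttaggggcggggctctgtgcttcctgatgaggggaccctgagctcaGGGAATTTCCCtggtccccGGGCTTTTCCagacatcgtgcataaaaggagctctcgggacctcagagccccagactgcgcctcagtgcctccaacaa
Tnip1: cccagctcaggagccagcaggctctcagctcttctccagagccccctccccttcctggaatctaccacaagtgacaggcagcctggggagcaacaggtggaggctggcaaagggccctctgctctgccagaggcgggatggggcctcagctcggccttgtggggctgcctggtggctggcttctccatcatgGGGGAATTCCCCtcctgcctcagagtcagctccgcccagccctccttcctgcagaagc
Mmp13: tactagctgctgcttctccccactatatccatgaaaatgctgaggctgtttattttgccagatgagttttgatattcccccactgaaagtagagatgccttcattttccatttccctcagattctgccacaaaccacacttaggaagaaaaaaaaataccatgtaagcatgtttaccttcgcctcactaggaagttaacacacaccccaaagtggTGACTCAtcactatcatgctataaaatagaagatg
Mmp3: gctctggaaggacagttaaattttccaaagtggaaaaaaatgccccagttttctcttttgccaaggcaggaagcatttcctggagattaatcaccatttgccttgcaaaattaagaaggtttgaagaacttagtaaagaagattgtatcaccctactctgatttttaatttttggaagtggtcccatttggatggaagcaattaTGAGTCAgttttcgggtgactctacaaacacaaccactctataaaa
The capitals of Cxcl1 hold GGGAATTTCC, which begins 71 bases before the start, and GGAAACACCC, a match on the opposite strand, which begins 89 bases before it. Cxcl2 holds the same GGGAATTTCC at 97 bases and GGGCTTTTCC at 78 bases. Overlapping matches on the opposite strand give each GGGAATTTCC run its last capital. Mmp13 holds TGACTCA at 35 bases and Mmp3 holds TGAGTCA at 46 bases before the start.

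Complement C3, the central protein of the complement cascade, had the largest difference of the pair on the log2(CPM + 1) scale; Cxcl5 and Saa3, at lower levels, had larger CPM ratios. C3 (chr17:57203970-57228136, minus strand) stood at 82.7 CPM with stressed GM medium against 11.7 CPM with stressed M medium, at 39.8 CPM with unstressed GM medium and 12.6 CPM with unstressed M medium, and at 13.6 CPM in untreated cells. Both GM libraries lay above the other 3, and both M libraries lay slightly below the untreated one. The stressed ratio was 7.06-fold (95% counting interval 6.08 to 8.24). In the fit C3 rose with GM medium by 2.28 ± 0.11 (log2, SE; edgeR adjusted p = 1.00e-94), and DESeq2 without filtering also called it (adjusted p = 0.024). The SE of edgeR rests on error pooled over all genes, whose common coefficient of variation was 4.28%, a value not specific to C3. The SE of DESeq2 for C3 was 0.55. In these bulk libraries, more expressing cells and more mRNA per cell cannot be told apart.

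Inflammatory cytokines and chemokines had the highest median in the stressed pair among the lists compared. Of 23 inflammatory cytokines and chemokines 9 passed the level filter, and all 9 were above 0 in the stressed pair, against 48.5% of all genes compared. Their median log2 difference was 0.91 in the stressed pair and 0.34 in the unstressed pair, beside -0.01 and 0.01 over all genes. The stressed median is the value of Cxcl10, a chemokine that attracts T cells, which rested on 21 reads with stressed GM medium against 4 reads with stressed M medium. Its unstressed difference was -0.28, and it did not pass in the fit (edgeR adjusted p = 0.71). At 2-fold 3 of the 9 were higher and at 1.5-fold 6, beside 0.206% and 0.903% of all genes. The list's other 14 genes were too low to compare. Il6 had 2 reads with stressed GM medium against 2 with stressed M medium, and 3 genes, Tnf and Cxcl12 among them, had none in any LLC library.

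Cxcl1, Cxcl2 and Cxcl5 were all higher with stressed GM medium. They attract neutrophils through the receptor CXCR2, and their genes lie close together on chromosome 5. Cxcl3, from the same list and too low to compare, went the other way, with 4 reads with stressed GM medium against 14 with stressed M medium. Cxcl1 was at 64.6 CPM with stressed GM medium against 27.7 CPM with stressed M medium, compared with 21.1 CPM with unstressed GM medium, 22.0 CPM with unstressed M medium and 54.8 CPM in untreated cells. Its ratio was 2.33-fold (2.09 to 2.61) in the stressed pair, while the log2 difference of the unstressed pair was -0.06. Cxcl2 was at 28.2 CPM with stressed GM medium against 13.9 CPM with stressed M medium, compared with 6.89, 6.06 and 15.5 CPM in the unstressed GM, unstressed M and untreated libraries. For both genes the stressed GM library was the highest of the 5, the untreated library was above stressed M medium, and the unstressed media gave the lowest values. Cxcl5 was at 6.99 CPM with stressed GM medium against 0.710 CPM with stressed M medium, a ratio of 9.85-fold (5.42 to 19.6) on 12 reads with M medium, and stayed between 1.12 and 1.49 CPM in the other 3 libraries. All 3 passed edgeR's test (adjusted p of 9.00e-10, 8.45e-05 and 2.24e-06 for Cxcl1, Cxcl2 and Cxcl5), and DESeq2 called none of them. The fitted rise of Cxcl1 was 0.68 ± 0.10 (log2, SE), a value that averages 2 unequal pairs, at 1.19 and -0.06.

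Ccl2 and Ccl7, which attract monocytes through the receptor CCR2, followed a different order. Ccl2 was at 145 CPM with stressed GM medium against 81.5 CPM with stressed M medium, at 106 CPM with unstressed GM medium and 83.0 CPM with unstressed M medium, and at 219 CPM in untreated cells, so that all 4 media lay below the untreated level. Ccl7 was at 15.5 CPM with stressed GM medium against 4.44 CPM with stressed M medium, at 11.2 CPM with unstressed GM medium and 4.58 CPM with unstressed M medium, and at 11.1 CPM in untreated cells. Here the GM libraries were at or above the untreated level and both M libraries were below it. Ccl7 rose with GM medium by 1.56 ± 0.18 (log2, SE; edgeR adjusted p = 5.06e-15), a call that DESeq2 without filtering also made (adjusted p = 0.0066). Csf1, the macrophage growth factor, and Cx3cl1, a membrane-bound chemokine, rose as well, though their stressed ratios were under 1.5-fold.

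Lcn2, Slpi, Saa3 and Nos2 were also among the 23 genes past 2-fold. Lcn2, a protein that binds iron-carrying siderophores, was at 25.4 CPM with stressed GM medium against 11.2 CPM with stressed M medium, compared with 1.69, 1.61 and 0.461 CPM in the unstressed GM, unstressed M and untreated libraries. Both stressed libraries were thus far above the other 3, and within the stressed pair the ratio was 2.26-fold (1.90 to 2.70). Slpi, a secreted inhibitor of neutrophil proteases, was at 9.19 CPM with stressed GM medium against 3.55 CPM with stressed M medium. Saa3, an acute-phase protein of mice, and Nos2, the inducible nitric oxide synthase, were picked out after their values were seen, because they stay under 5 CPM. Saa3 was at 3.90 CPM with stressed GM medium against 0.237 CPM with stressed M medium, and Nos2 at 4.28 CPM and 0.828 CPM in the same order. For Saa3 the M library rested on 4 reads, and its interval of 6.13 to 62.5-fold is wide. Saa3 and Nos2 were the 2 of the 23 that reached the level filter only through the stressed GM library, so that they had to differ and their calls support nothing. Lcn2 and Slpi rose by edgeR's test and not by DESeq2, and for Lcn2 the unstressed pair differed by 0.04 on the log2 scale.

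Feedback genes of NF-kB differed in part. Of 16 compared, 10 were above 0 in the stressed pair, beside 48.5% of all genes, with a median of 0.13. In the unstressed pair 8 were above 0, beside 52.1% of all genes, with a median of 0.006. Bcl3 and Nfkbiz exceeded 1.5-fold in the stressed pair, beside 0.903% of all genes. Nfkbiz, a nuclear partner of NF-kB, was at 81.2 CPM with stressed GM medium against 48.2 CPM with stressed M medium, and at 81.5 CPM in untreated cells. Bcl3, another nuclear regulator of NF-kB, was at 7.31 CPM with stressed GM medium against 3.37 CPM with stressed M medium. Both, and Tnip1, which restrains NF-kB signalling and carries the motif shown above, rose in the fit by edgeR's test, beside 2.21% of all genes. The other 13 did not pass. None of the 3 that rose was called by DESeq2. Zc3h12a, an RNase that degrades cytokine mRNAs and was picked after its value was seen, was at 22.6 CPM with stressed GM medium against 11.7 CPM with stressed M medium.

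**Figure D2:**
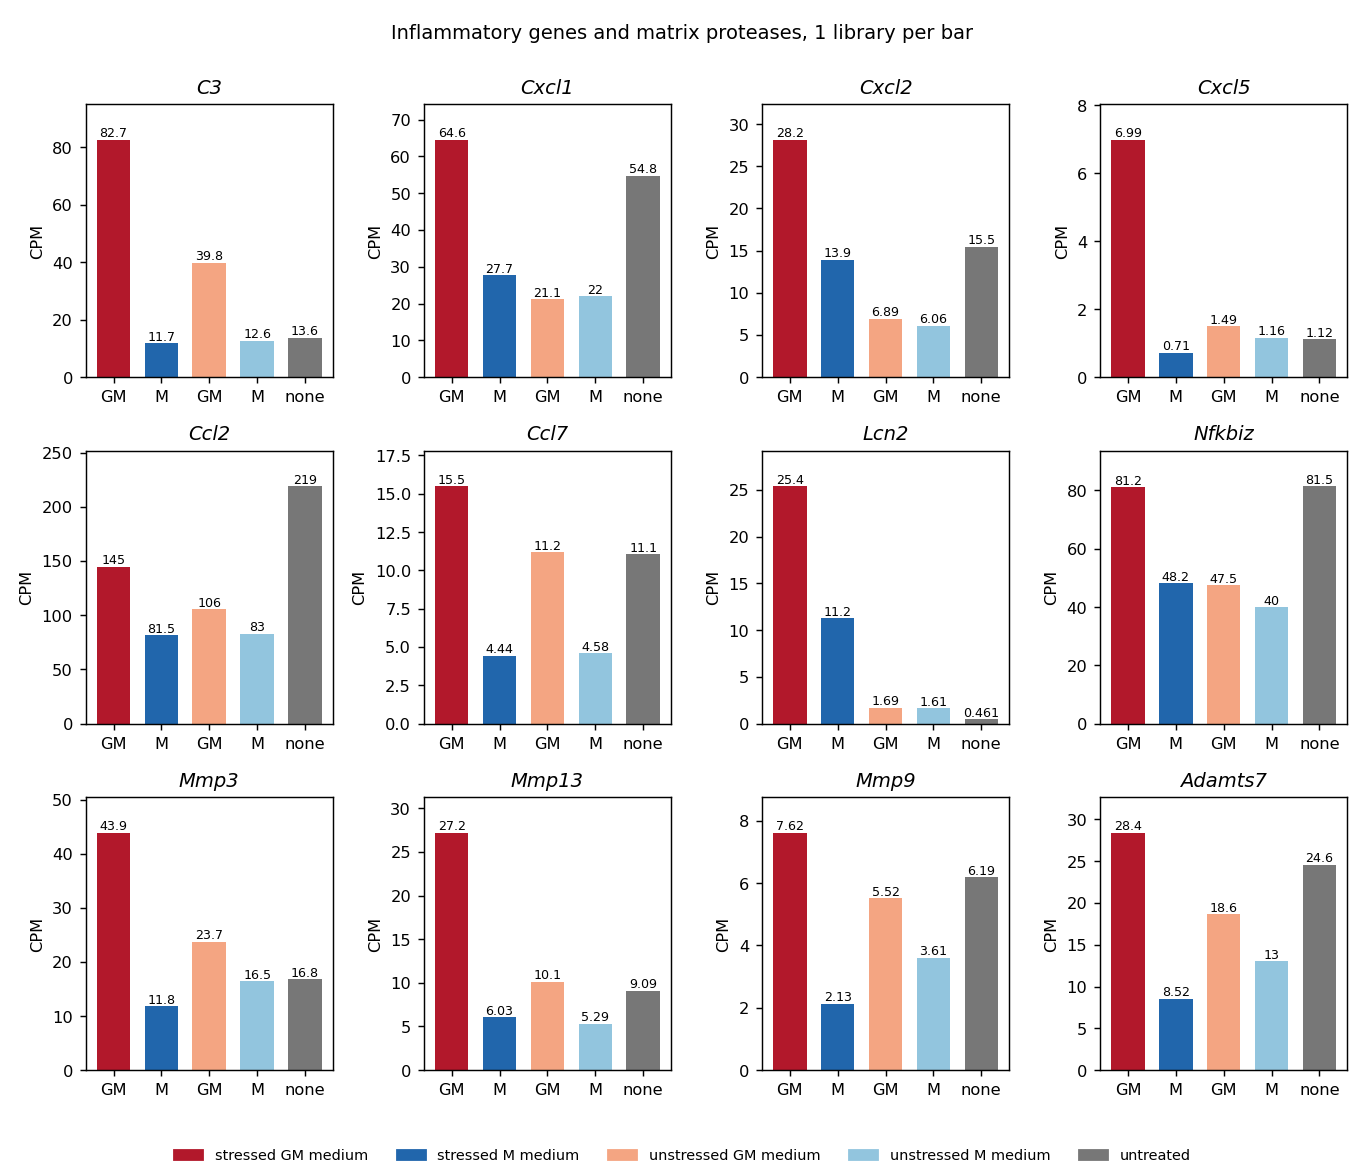
CPM in each of the 5 LLC libraries for 12 inflammatory and protease genes; colours give the library and labels under the bars give the medium, with 1 library per bar and no error bar. In every panel the bar of stressed GM medium exceeds that of stressed M medium, and in Ccl2 the untreated library (219 CPM) is the highest.

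Matrix metalloproteases, which cut collagens and other matrix proteins, included 3 of the 23 genes past 2-fold. Mmp13, a collagenase, was at 27.2 CPM with stressed GM medium against 6.03 CPM with stressed M medium, at 10.1 CPM with unstressed GM medium and 5.29 CPM with unstressed M medium, and at 9.09 CPM in untreated cells. Mmp3, or stromelysin, was at 43.9 CPM with stressed GM medium against 11.8 CPM with stressed M medium, with 23.7, 16.5 and 16.8 CPM in the unstressed GM, unstressed M and untreated libraries. Both genes were highest with stressed GM medium, second with unstressed GM medium, and below the untreated level with stressed M medium. Mmp9, a gelatinase, was at 7.62 CPM with stressed GM medium against 2.13 CPM with stressed M medium. Ratios in the stressed pair were 4.51-fold (3.63 to 5.65) for Mmp13, 3.73-fold (3.18 to 4.39) for Mmp3 and 3.58-fold (2.45 to 5.35) for Mmp9. Adamts7, a related metalloprotease, was at 28.4 CPM with stressed GM medium, 8.52 CPM with stressed M medium and 24.6 CPM in untreated cells.

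Over the list of matrix proteases and the plasminogen system, 17 genes were compared and 13 were above 0 in the stressed pair (all genes, 48.5%), with a median of 0.11 against 0.32 in the unstressed pair. Rises in the fit by edgeR's test numbered 7, beside 2.21% of all genes, and falls 0, and they included Timp2, Plau and Mmp11 beside the 3 metalloproteases named above. DESeq2 called none of these 7.

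Most collagen genes were higher with GM medium whether or not the macrophages had been stressed. Of 16 compared, 11 were above 0 in the stressed pair and 15 in the unstressed pair, beside 48.5% and 52.1% of all genes, with medians of 0.13 and 0.29. In the fit 9 rose by edgeR's test, beside 2.21% of all genes, and 0 fell. Col7a1, which builds the anchoring fibrils of skin, was at 38.5 CPM with stressed GM medium against 12.4 CPM with stressed M medium, at 60.1 CPM with unstressed GM medium and 16.4 CPM with unstressed M medium, and at 16.6 CPM in untreated cells. Its log2 difference was 1.56 in the stressed pair and 1.81 in the unstressed pair, and the fitted rise of 1.76 ± 0.11 (SE) was called by edgeR (adjusted p = 9.06e-56) and by DESeq2 without filtering (adjusted p = 1.78e-14). Col8a1 and Col12a1 rose by both of these tests too. Col8a1 was at 28.1 CPM with stressed GM medium against 15.7 CPM with stressed M medium, while Col12a1 was at 23.9 CPM and 15.5 CPM in that order.

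Olfml3, a secreted olfactomedin-family protein, resembled Col7a1. It was at 7.43 CPM with stressed GM medium against 1.77 CPM with stressed M medium, at 15.7 CPM with unstressed GM medium and 3.61 CPM with unstressed M medium, and at 1.51 CPM in untreated cells. Of the 23 higher genes, C3, Col7a1, Ccl7 and Olfml3 were those also past 2-fold in the unstressed pair, which is 17.4% of the 23 and 28.6% of the 14 there. The same 4 were the ones among the 23 that DESeq2 without filtering called. Fbn1, the microfibril protein fibrillin, was at 52.0 CPM with stressed GM medium against 37.3 CPM with stressed M medium. It rose by edgeR's test, while DESeq2 with its filtering step did not call it. Among 13 matricellular proteins compared, 6 rose and 2, Thbs2 and Loxl3, fell by edgeR's test (all genes, 2.21% and 2.32%). Of these, DESeq2 also called the fall of Thbs2 and the rise of Fn1, which encodes fibronectin.

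Skil and Fstl1, from the list of TGF-beta and activin signalling, rose by both tests. Skil, a repressor of SMAD proteins, was at 85.6 CPM with stressed GM medium against 47.1 CPM with stressed M medium, at 80.8 CPM with unstressed GM medium and 48.9 CPM with unstressed M medium, and at 63.2 CPM in untreated cells. Fstl1, a secreted follistatin-like protein, was at 83.1 CPM with stressed GM medium against 50.4 CPM with stressed M medium, at 109 CPM with unstressed GM medium and 61.1 CPM with unstressed M medium, and at 69.5 CPM in untreated cells. For both genes the GM libraries lay above the untreated level and the M libraries below it. Skil rose by 0.79 ± 0.07 and Fstl1 by 0.78 ± 0.07 (log2, SE), and DESeq2 called both (adjusted p = 5.75e-06 and 1.47e-06). Of 17 genes of this list compared, 4 rose by edgeR's test and 1, Tgfbi, fell, beside 2.21% and 2.32% of all genes.

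Genes that were lower with stressed GM medium were fewer and mostly low in level. The 6 past 2-fold were Cmtr1, Akap12, Gdpd2, Magohb, Notch1 and Ogn; the first 3 stayed under 5 CPM in the pair and are named because the count is small. All 6 had their lowest value of the 5 libraries with stressed GM medium, against 17.8% of all genes compared, a share that the choice of these genes raises. Notch1, a receptor for signals from neighbouring cells, was at 4.41 CPM with stressed GM medium against 9.99 CPM with stressed M medium, at 9.03 CPM with unstressed GM medium and 13.9 CPM with unstressed M medium, and at 33.3 CPM in untreated cells. Every medium was thus below the untreated level for Notch1, and GM medium was the lower of each pair. Notch1 fell in the fit by edgeR's test (adjusted p = 1.31e-05) but not by DESeq2 without filtering (adjusted p = 0.36). Ogn, a small proteoglycan of the matrix, was at 14.2 CPM with stressed GM medium against 29.6 CPM with stressed M medium, with 26.1, 23.8 and 51.7 CPM in the unstressed GM, unstressed M and untreated libraries.

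Sned1 and Cd38 fell by edgeR's test and by DESeq2, whose filtering left no adjusted p for low genes. Sned1, a matrix protein, was at 113 CPM with stressed GM medium against 191 CPM with stressed M medium, at 171 CPM with unstressed GM medium and 315 CPM with unstressed M medium, and at 238 CPM in untreated cells. Cd38, an enzyme that consumes NAD, was at 53.0 CPM with stressed GM medium against 95.8 CPM with stressed M medium, at 67.5 CPM with unstressed GM medium and 123 CPM with unstressed M medium, and at 207 CPM in untreated cells. In both Sned1 and Cd38 the M library exceeded the GM library in each pair by a similar factor. Sned1 was 1.69-fold (1.60 to 1.80) and Cd38 1.81-fold (1.66 to 1.97) higher in M medium within the stressed pair. Sned1 fell by 0.82 on the log2 scale with an SE of 0.06, and Cd38 fell by 0.86 with an SE of 0.07, by edgeR (adjusted p = 3.54e-40 and 5.36e-35) and by DESeq2 (adjusted p = 2.14e-16 and 1.77e-11). Plekha6, at 9.38 CPM with stressed GM medium against 18.4 CPM with stressed M medium, was 1.96-fold (1.61 to 2.40) higher in M medium and fell by edgeR's test and by DESeq2 without filtering (adjusted p = 0.034).

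Gpnmb, a membrane glycoprotein of lysosomes and melanosomes, was at 524 CPM with stressed GM medium against 732 CPM with stressed M medium, at 413 CPM with unstressed GM medium and 669 CPM with unstressed M medium, and at 783 CPM in untreated cells. It fell by both tests, as did Tns1, a focal adhesion protein, and Uap1l1. The lysosome list as a whole had 28 genes compared, of which 21 were below 0 in the stressed pair, beside 51.5% of all genes, and 14 fell by edgeR's test, beside 2.32% of all genes, with 0 rising. Its median was -0.10 in the stressed pair and -0.20 in the unstressed pair, and no member reached 1.5-fold in the stressed pair. Lamp1, Lamp2 and Gpnmb were called by DESeq2 as well.

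**Figure D3:**
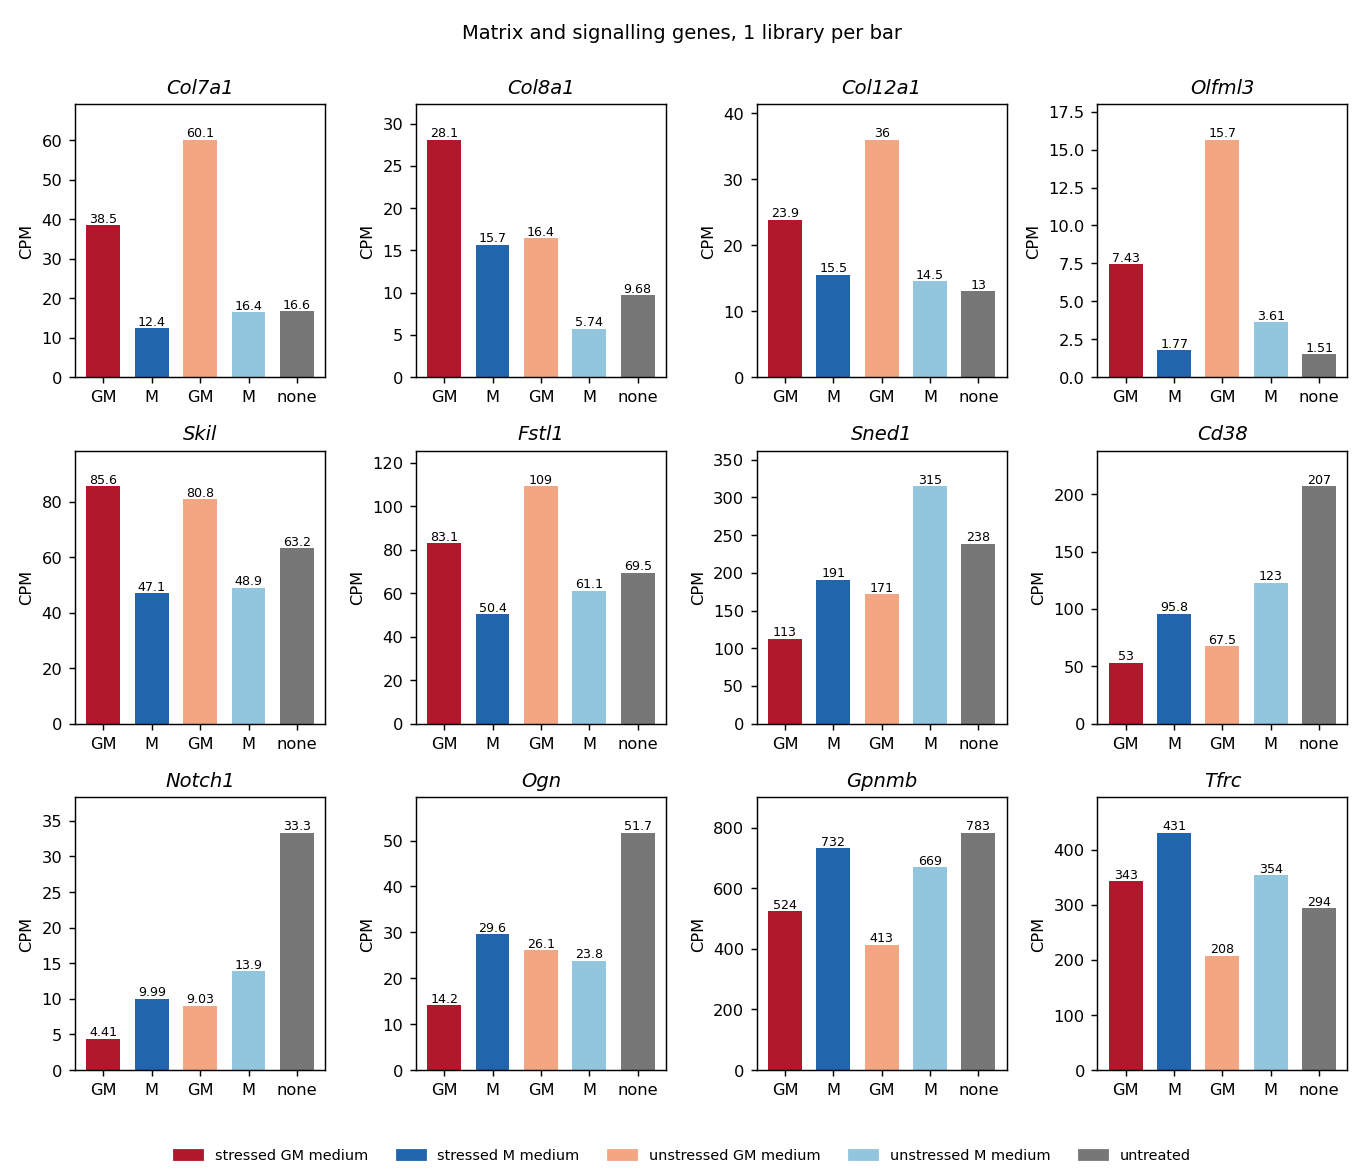
CPM in each of the 5 LLC libraries for 12 matrix, signalling and surface genes; colours give the library and labels under the bars give the medium, with 1 library per bar and no error bar. Col7a1, Olfml3, Skil and Fstl1 are higher with GM than with M medium in both pairs, and Sned1, Cd38, Notch1, Gpnmb and Tfrc are lower.

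Most sterol genes were slightly lower with GM medium. Of 23 genes of cholesterol synthesis and uptake compared, 21 were below 0 in the stressed pair (all genes, 51.5%), with a median of -0.16 in the stressed and -0.17 in the unstressed pair. Falls by edgeR's test numbered 4, beside 2.32% of all genes, Insig1, Msmo1 and Ebp among them, and DESeq2 called none. Insig1, which holds the sterol sensor in the ER, was at 186 CPM with stressed GM medium against 237 CPM with stressed M medium. Tfrc, the transferrin receptor, was at 343 CPM with stressed GM medium against 431 CPM with stressed M medium, at 208 CPM with unstressed GM medium and 354 CPM with unstressed M medium, and fell by edgeR's test only.

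MAP kinase feedback genes were lower in part, and immediate-early genes higher in part. Of 18 feedback genes 12 were below 0 in the stressed pair, beside 51.5% of all genes. Dusp6, Dusp4, Spry4 and Dusp1, which restrain MAP kinase signalling, fell by edgeR's test, beside 2.32% of all genes. Of 12 immediate-early genes 9 were above 0, beside 48.5% of all genes. Ier3, Myc, Fosl2 and Junb rose by that test, beside 2.21% of all genes. Fosl2, an AP-1 subunit, was at 85.5 CPM with stressed GM medium against 67.4 CPM with stressed M medium. DESeq2 called none of these 8. Vegfa, the vascular growth factor, was at 348 CPM with stressed GM medium against 264 CPM with stressed M medium and rose by edgeR's test and by DESeq2, though not by DESeq2 without filtering (adjusted p = 0.092).

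ER chaperone genes differed by small amounts, and none passed in the fit. Hspa5 was at 2555 CPM with stressed GM medium against 2907 CPM with stressed M medium, at 1158 CPM with unstressed GM medium and 1206 CPM with unstressed M medium, and at 985 CPM in untreated cells. Both stressed libraries were thus far above the other 3, with stressed M medium the higher of the pair. Of 24 ER chaperones and ERAD genes compared, 21 were below 0 in the stressed pair, beside 51.5% of all genes, the range was -0.27 to 0.05, and 0 passed in the fit by edgeR or DESeq2. Ddit3, which encodes the stress factor CHOP, was at 40.9 CPM with stressed GM medium against 46.5 CPM with stressed M medium.

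Integrated stress response genes also differed by small amounts. Of 19 integrated stress response genes compared, 12 were above 0 in the stressed pair, beside 48.5% of all genes, with a median of 0.10 against 0.22 in the unstressed pair. By edgeR's test 9 rose with GM medium and 1, Atf5, fell, beside 2.21% and 2.32% of all genes; DESeq2 called none of the 10. Trib3, an ATF4 target that restrains AKT, was at 213 CPM with stressed GM medium against 174 CPM with stressed M medium, and at 106 CPM in untreated cells. Atf4 mRNA itself was at 964 CPM with stressed GM medium against 894 CPM with stressed M medium. Serine and one-carbon enzymes had 11 of 12 genes above 0, beside 48.5% of all genes. By edgeR's test 5 rose, beside 2.21% of all genes, among them Shmt2 and Psat1. Asns and Mthfd2 are on this list and on that of the integrated stress response, and their rises count in both.

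Few genes of MHC class I presentation, of the interferon response or of checkpoint ligands passed in the fit. Of 13 MHC class I genes 11 were above 0 in the stressed pair, beside 48.5% of all genes, with a median of 0.16 against 0.00 in the unstressed pair, and none passed edgeR's test or DESeq2's. Class I genes are near-identical copies, so reads may be split between them. H2-K1 was at 179 CPM with stressed GM medium against 148 CPM with stressed M medium. Interferon-stimulated genes had 14 of 19 above 0, beside 48.5% of all genes, with a median of 0.16. Ifitm3 rose and Bst2 fell by edgeR's test, beside 2.21% and 2.32% of all genes. Isg15 was the 1 of the 19 past 1.5-fold, at 3.90 CPM with stressed GM medium against 2.19 CPM with stressed M medium, and did not pass (edgeR adjusted p = 0.17). Among 8 checkpoint and costimulatory ligands compared 1, Cd276, rose by edgeR's test, beside 2.21% of all genes. Cd274, which encodes the checkpoint ligand PD-L1, was at 7.68 CPM with stressed GM medium against 5.85 CPM with stressed M medium and did not pass (edgeR adjusted p = 0.74).

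Genes of growth and energy use were close to 0 in the stressed pair. The median was -0.04 for 22 mitosis genes, -0.02 for 26 DNA replication genes, 0.01 for 17 glycolysis genes and 0.07 for 20 ribosomal protein genes, and none of these genes passed edgeR's test or DESeq2's. Mki67, a marker of cycling cells, was at 644 CPM with stressed GM medium against 705 CPM with stressed M medium. Of 17 NRF2 antioxidant genes 15 were below 0, beside 51.5% of all genes, with a median of -0.10. Gstm1 and Osgin1 fell by edgeR's test, beside 2.32% of all genes, Gstm1 by DESeq2 as well.

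**Figure D4:**
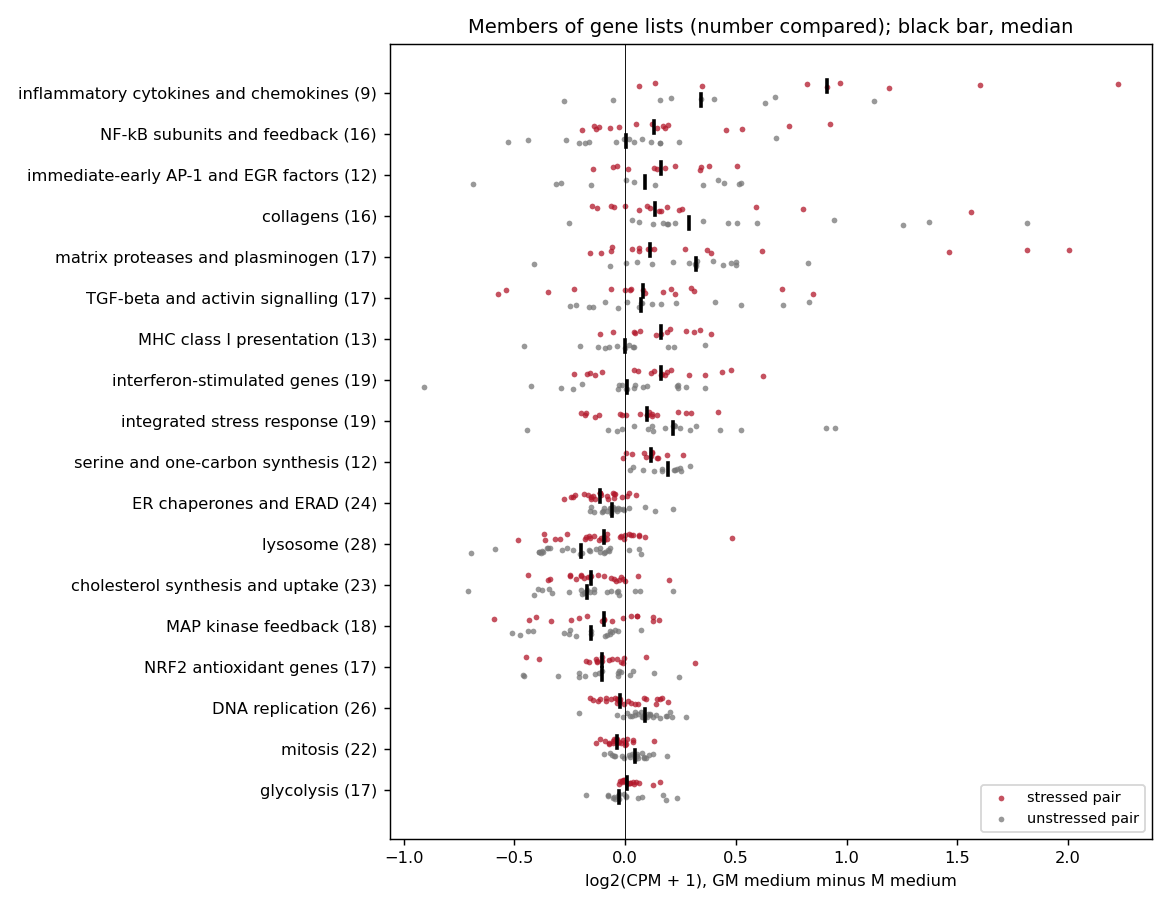
Log2(CPM + 1) of GM medium minus M medium for each compared member of 18 gene lists, in the stressed pair (red, upper row of each list) and the unstressed pair (grey, lower row); black bars are medians. The chemokine list has medians of 0.91 and 0.34, and the lists from DNA replication down lie near 0.

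Among the other genes past 2-fold, Tnfrsf9 and Fgf7 were the most abundant and are named after their values were seen. Tnfrsf9, the receptor 4-1BB, was at 10.01 CPM with stressed GM medium against 4.14 CPM with stressed M medium, with 6.04, 5.16 and 2.50 CPM in the unstressed GM, unstressed M and untreated libraries. Fgf7, a growth factor for epithelial cells, was at 9.57 CPM with stressed GM medium against 4.20 CPM with stressed M medium, with 9.81, 6.97 and 9.62 CPM in the same other libraries. Stressed M medium thus gave the lowest Fgf7 value, while the other 4 libraries lay between 6.97 and 9.81 CPM. The rest of the 23, among them Lrp4, Ifitm1, Megf10 and Il13ra2, stayed under 5 CPM in the pair, and 3 of the 23, Gm14419 and Ccdc13 among them, did not pass edgeR's test.

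Set beside the other libraries, the 23 genes past 2-fold were mostly above the untreated level with stressed GM medium and below it with stressed M medium. Of the 23, 20 exceeded the untreated library with stressed GM medium, while 4 did so with stressed M medium, against 51.8% and 51.7% of all genes compared. In 17 the stressed GM library was the highest of the 5, against 16.5% of all genes. The choice of the 23 by this pair raises the shares for stressed GM medium and lowers the share for stressed M medium. The unstressed pair had the same sign for 19 of the 23 and for 4 of the 6 lower genes, against 58.5% of all genes. Across the 11190 genes the differences of the 2 pairs had Pearson's r of 0.27 and Spearman's rho of 0.23, given as a description, since genes are not independent. By edgeR's test 20 of the 23, Saa3 and Nos2 included, and 5 of the 6 passed in the fit, beside 2.21% and 2.32% of all genes. The stressed pair is part of that fit, so the choice of these genes raises both counts. Just inside the 2-fold line lay Lrp4 at a log2 difference of 1.02 and Il13ra2 (2.90 CPM with stressed GM medium against 0.946 CPM with stressed M medium) among higher genes, and Ogn at -1.01 among lower ones. Just outside lay Cxcl2 at 0.97, Nrgn (2.96 CPM with stressed GM medium against 6.92 CPM with stressed M medium) and Agt at -0.97.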

How the data were processed

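RNA was sequenced from 5 libraries of LLC cells and 4 of macrophages, 1 per group, from total RNA that was isolated with Trizol, per the labels' protocols. The submitters' processing notes name TopHat2 2.1.0, HISAT2 and cutadapt 1.15 without saying what each did. The read counter, strand setting and genome build are not given in the sources used here, so genes that overlap on opposite strands cannot be told apart. The authors deposited raw read counts per gene, and all cells were whole numbers (0 exceptions); each line of the LLC table ends with a carriage return inside its last quoted cell, which was stripped. The deposited FPKM columns were not used. Of 21817 gene IDs shared with GENCODE M21 (GRCm38), 21604 (99%) had equal coordinates, so positions are given for that build.

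The deposited counts were scaled here to CPM by TMM library sizes (edgeR 4.0.16, R 4.3.3), except for macrophage-marker levels in macrophages, which use plain totals of 37695079 to 42751176 reads. A gene was called higher or lower from a log2(CPM + 1) difference of 1 (2-fold), with 1.5-fold beside it, among genes with a mean of at least 1 CPM. The additive fit used edgeR's quasi-likelihood test on all 11190 genes, with Benjamini-Hochberg adjustment at 0.05 and infinite prior degrees of freedom; DESeq2 1.42.0 was the alternative. Each SE is the absolute log2 change divided by the square root of F. The p-values rest only on these libraries, whose spread may be technical, and those of edgeR use error pooled over all genes.

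The comparison, the 45 gene lists and the tests were chosen with earlier results of these data known. The text draws on the 12 largest differences in each direction among genes that reach 5 CPM in 1 of the 2 libraries and have an established symbol, up to 4 members of each list, the 6 genes of lowest p per direction of the fit, 16 genes set by name, and list members that passed in the fit. Genes outside these rules were named after their values were seen. Alternatives changed the library size, the pseudocount, the level filter, the call and the fit. No replication-dependent histone of 17 listed was in the LLC table. Values of some genes are not reported here.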

Additional observations from a re-analysis of the deposited data

Results flagged for a closer look

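In 5 of the genes named or past 2-fold the stressed pair and the unstressed pair differed in opposite directions, each by at least 1.2-fold with a counting interval that leaves out 1; with 1 library per group this difference between the pairs was not tested. Magohb, a core protein of the exon junction complex, had a log2 difference (GM minus M medium) of -1.03 in the stressed pair and 0.40 in the unstressed pair, at 4.03, 9.28, 6.89, 4.97 and 4.54 CPM in the stressed GM, stressed M, unstressed GM, unstressed M and untreated libraries. Notch3, a Notch receptor, had -0.68 in the stressed pair and 0.88 in the unstressed pair, at levels of 0.252 to 1.98 CPM that rest on few reads. Irf9, a subunit of the interferon-responsive factor ISGF3, had 0.44 in the stressed pair and -0.43 in the unstressed pair, at 8.75 CPM with stressed GM medium, 6.21 CPM with stressed M medium, 6.17 CPM with unstressed GM medium and 8.64 CPM with unstressed M medium. H2-Q4, an MHC class I gene with near-identical copies, had 0.31 in the stressed pair and -0.46 in the unstressed pair. Ccdc13, a coiled-coil protein, had 1.06 in the stressed pair and -0.63 in the unstressed pair, at 1.57 CPM with stressed GM medium on 25 reads against 0.237 CPM with stressed M medium on 4 reads. The same rule was met by 50 of all 11190 genes compared.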

How the results depend on the processing

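No paired analysis was possible because each group holds 1 library and the labels give no shared replicate numbers. For the same reason leaving out a replicate could be done only as the fit without the untreated library, which called 249 genes higher and 258 lower with GM medium. In the stressed pair a pseudocount of 0.5 CPM gave 11 genes lower at 2-fold, a pseudocount of 5 CPM gave 8 higher and 0 lower, a mean of at least 5 CPM gave 13 higher and 3 lower, and a call at 1.5-fold gave 101 higher and 64 lower. In the unstressed pair these settings gave 26 higher and 25 lower, 4 higher and 0 lower, 2 lower, and 101 higher and 113 lower, in that order. In the fit DESeq2 called 14 genes higher and 23 lower, DESeq2 without independent filtering 17 higher and 14 lower, and edgeR with a 2-fold minimum 20 higher and 11 lower. At an unadjusted p under 0.05 edgeR had 1506 genes and DESeq2 344. For genes printed with an adjusted p of DESeq2, the other edgeR settings gave adjusted p-values from 1.87e-101 to 2.96e-94 for C3 and from 6.13e-06 to 8.97e-05 for Notch1, and at most 1.41e-14 for Ccl7, 2.4e-55 for Col7a1, 7.83e-24 for Skil, 1.95e-25 for Fstl1, 2.33e-39 for Sned1, 1.44e-33 for Cd38 and 1.35e-05 for Vegfa. The other settings (library size from totals or DESeq2 factors, RLE factors, no filter) kept each of these counts within 1.5 times. No named gene past 2-fold in the stressed pair reversed its direction, and smaller differences of that pair were not checked for this. A change of pseudocount cannot reverse a direction. Library size changed no named gene's difference beyond its counting interval, and a pseudocount of 5 CPM did for 9 of 182. Depth limits genes under a few CPM most: Saa3 rested on 4 reads with stressed M medium.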
